A study of Mus musculus with 2 samples.

Results

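The 10 genes described here encode enzymes and a kinase of branched-chain amino acid (BCAA) breakdown: Bcat2, Bckdha, Bckdhb, Dbt, Bckdk, Ivd, Mut, Hibadh, Pcca and Pccb. They were taken by symbol, and all 10 were found among the 10543 genes that carry a single symbol in the table. The list was set with earlier results of these data known. Poly(A) RNA came from thigh skeletal muscle of B6C3F1 mice, a hybrid strain, that were 26 months old in both groups. The control mice ate the control diet. The calorie restriction (CR) mice ate about 40% fewer calories for 25 months, on an enriched diet meant to keep their intake of protein and micronutrients, for their weight, near that of the controls. Each group is 1 library, and its number of mice was not stated in the labels. There are therefore no replicates, no test and no p-value, and each difference below is one between 2 libraries. Values are FPKM as labelled (by that name, fragments scaled by transcript length and by the mapped fragments of the library). Their scale is high for a reason that is not stated, so they may not follow this definition exactly. The depth of the libraries is unknown.

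Leucine, isoleucine and valine are first stripped of their amino group, which in muscle is done mainly by the mitochondrial aminotransferase Bcat2. The resulting keto acids are committed to oxidation by the branched-chain keto acid dehydrogenase complex (BCKDH), built from the E1 subunits Bckdha and Bckdhb, the E2 core Dbt and the E3 subunit Dld, which other dehydrogenase complexes share. The kinase Bckdk switches the complex off by phosphorylating the E1 alpha subunit Bckdha, and the phosphatase Ppm1k reverses this. Past BCKDH each amino acid has its own arm, and valine and isoleucine carbon passes through propionyl-CoA carboxylase (Pcca and Pccb) and methylmalonyl-CoA mutase (Mut) to the tricarboxylic acid cycle.

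The 2 genes with the lowest CR over control ratios, Pccb and Bckdhb, are shown with the sequence just before their starts, beside that of Bckdk, whose levels lay close together. RefSeq windows on build GRCm38.p6 were matched by symbol for 8 of the 10 genes (Dbt and Mut were not matched), and a window was used where its start lay within 100 bases of the start of a principal GENCODE transcript, which left 7 genes and set Bckdha aside. Each sequence below is the 250 bases before the start, on the gene's strand, 5′ to 3′. Capitals mark a CCAAT box (CCAAT), a GC box (GGGCGG) or the core of the nuclear respiratory factor 1 motif (GCGCATGCG), each searched on both strands.
Pccb, chr9:101034885-101035134, minus strand: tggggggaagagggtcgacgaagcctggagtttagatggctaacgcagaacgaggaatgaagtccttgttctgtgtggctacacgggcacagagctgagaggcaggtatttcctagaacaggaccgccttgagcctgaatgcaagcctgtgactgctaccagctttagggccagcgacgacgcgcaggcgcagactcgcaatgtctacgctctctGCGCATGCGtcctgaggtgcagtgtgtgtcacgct
Bckdhb, chr9:83924887-83925136, plus strand: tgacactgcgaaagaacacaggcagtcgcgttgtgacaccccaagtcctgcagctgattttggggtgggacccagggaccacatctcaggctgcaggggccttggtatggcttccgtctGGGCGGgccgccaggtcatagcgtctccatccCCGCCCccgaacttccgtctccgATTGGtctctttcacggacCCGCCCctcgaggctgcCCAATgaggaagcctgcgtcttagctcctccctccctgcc
Bckdk, chr7:127903823-127904072, plus strand: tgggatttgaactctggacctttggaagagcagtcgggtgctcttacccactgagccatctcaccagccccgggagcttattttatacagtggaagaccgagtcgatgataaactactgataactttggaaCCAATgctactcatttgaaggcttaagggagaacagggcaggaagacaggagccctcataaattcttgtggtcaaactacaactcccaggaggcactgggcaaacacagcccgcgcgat

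The Pccb window held 1 match to GCGCATGCG, which begins 35 bases before the start and is found in 1.45% of all 32851 windows of this length. The Bckdhb window held 3 GC boxes and 2 CCAAT boxes and the Bckdk window 1 CCAAT box, motifs found in 32.7% and 33.8% of all windows. The motifs do not overlap each other in these windows. Of the 7 windows, 5 held a CCAAT box, 3 a GC box and 1 a match to GCGCATGCG. AAGGTCA, a binding element of several nuclear receptors, and the E-box CACGTG were in none of the 7 windows, against 4.08% and 6.02% of all windows. The GC content was 57.6% for Pccb and 63.2% for Bckdhb, beside a median of 52.4% over all windows. A match describes letters only, and the Pccb and Bckdhb windows shared none of these motifs.

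None of the 10 genes differed by 2-fold between the libraries. A log2 ratio below is log2 of CR FPKM + 1 over control FPKM + 1, and a fold is that ratio without the log. Among the 10533 genes that averaged 1 FPKM or more, 8.01% reached 2-fold on the higher side in CR and 10.7% on the lower side. At a smaller fold of 1.5, 2 of the 10 genes were lower (Pccb and Bckdhb), 1 was higher (Dbt) and 7 lay within it. Over all genes 18.8% reached 1.5-fold on the lower side and 16.4% on the higher side, so that these counts lie near the background. All 10 genes had a mean above 300 FPKM. Among the 4170 genes that averaged 300 FPKM or more, a limit chosen after the values were seen, 9.86% reached 1.5-fold on the lower side and 12.0% on the higher side, and 2.93% and 4.29% reached 2-fold. The median log2 ratio of the 10 genes was -0.15, beside -0.03 over all genes tested, and 6 of the 10 had a ratio below 0.

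**Figure D1:**
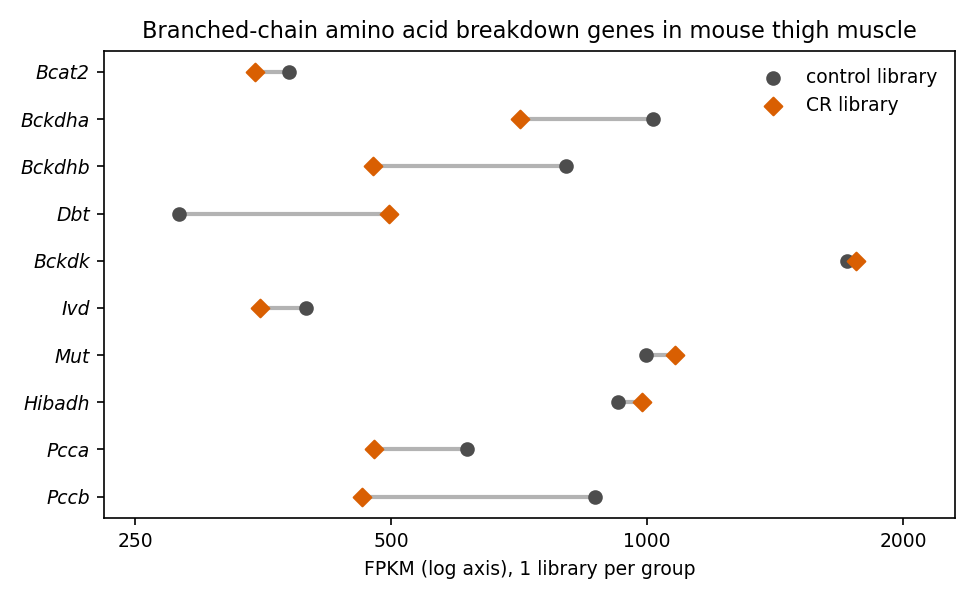
FPKM of each breakdown gene (log axis) in the control library (circles) and the CR library (diamonds), with a grey line joining the pair; each point is 1 library, so there is no error bar. Pccb, Bckdhb and Bckdha lie lower in the CR library, Dbt lies higher, at 498 against 281 FPKM, and Bckdk is the highest in both.

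The order of the levels, which can be compared as far as the values are per length, differed between the libraries. In the control library the order from the highest was Bckdk, Bckdha, Mut, Hibadh, Pccb, Bckdhb, Pcca, Ivd, Bcat2 and Dbt. In the CR library it was Bckdk, Mut, Hibadh, Bckdha, Dbt, Pcca, Bckdhb, Pccb, Ivd and Bcat2. Dbt was thus the lowest of the 10 in the control library and the fifth from the top in the CR library, where it stood near Pcca, Bckdhb and Pccb at 462 to 498 FPKM. With 1 library per group, neighbours in these orders cannot be separated from the spread between samples, which is not known here. The orders also depend on unnamed loci that overlap some of the genes, described below. With those under 2 kb added, Pcca to Pccb in the CR library was 0.777, so that Pccb stood above Pcca.

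Transamination was represented by Bcat2 (chromosome 7, 52825726 to 52845078, build mm9 as for all loci below). Its level was 379 FPKM on the control diet and 346 FPKM on CR, a log2 ratio of -0.13. It was among the least abundant of the 10 in both libraries. The cytosolic aminotransferase gene Bcat1 was not analysed here.

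The subunits of BCKDH went different ways. Bckdha, the E1 alpha subunit that binds the thiamine cofactor together with E1 beta and carries the sites the kinase phosphorylates (chromosome 7, 26414871 to 26443912), stood at 1017 FPKM on the control diet and 709 FPKM on CR. That is a log2 ratio of -0.52, or 1.43-fold lower in the CR library, and it became -0.59, past 1.5-fold, when the libraries were scaled to the same sum over all but the 50 top genes. Bckdhb, the E1 beta subunit (chromosome 9, 83818777 to 84017847), stood at 803 and 476 FPKM in the control and CR libraries, a log2 ratio of -0.75, or 1.68-fold lower in the CR library. Both kinds of E1 subunit were thus lower in the CR library. Dbt, the E2 transacylase that forms the core of the complex (chromosome 3, 116215997 to 116252899), stood at 281 and 498 FPKM, a log2 ratio of 0.82, or 1.77-fold higher in the CR library. Dld, the E3 subunit, stood at 1390.3 FPKM on the control diet and 1800.3 FPKM on CR, a log2 ratio of 0.37.

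Unlike the subunits, the regulators of the complex stood at nearly the same level in both libraries. Bckdk (chromosome 7, 135047440 to 135053178) stood at 1717 FPKM on the control diet and 1759 FPKM on CR, a log2 ratio of 0.04 that became -0.04 when the libraries were scaled to the same sum over all but the 50 most abundant genes. It ranked 455 on the control diet and 471 on CR among all genes. The phosphatase gene Ppm1k stood at 381 and 399.5 FPKM, a log2 ratio of 0.07.

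Ratios between genes inside one library do not depend on how the libraries are scaled to each other. Dbt to Bckdha was 0.277 on the control diet and 0.702 on CR, a change of 2.54-fold and the widest of the 6 ratios computed. Bckdk to Bckdha was 1.69 and 2.48, while Bckdk to Ppm1k was 4.50 and 4.40. Bckdha to Bckdhb, the pair that forms E1, was 1.27 and 1.49. Bcat2 to Bckdha was 0.373 and 0.489. These are ratios of FPKM and say nothing of the protein ratio in the complex or of its activity.

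**Figure D2:**
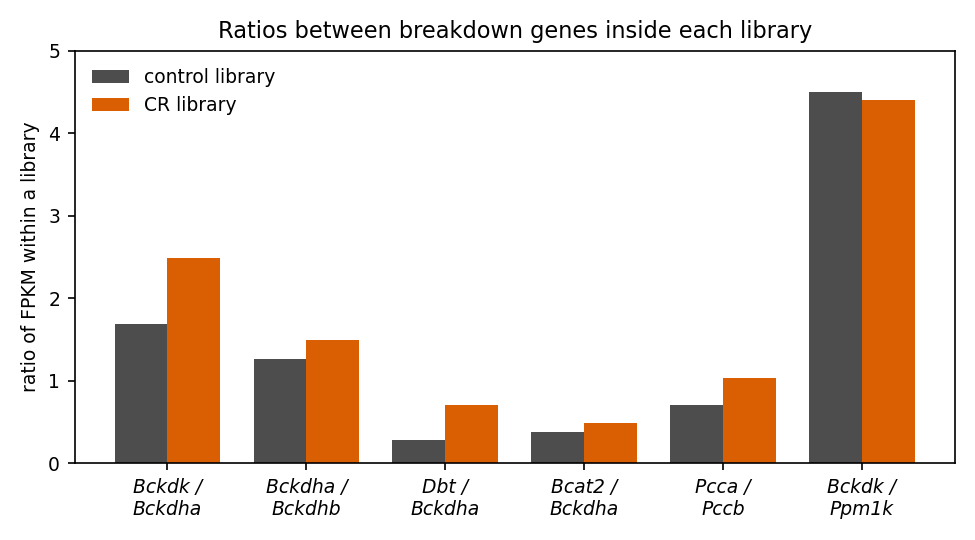
Ratio of the FPKM of 2 genes inside each library, for 6 pairs, with the control library in grey and the CR library in orange; bars start at 0 and each is 1 library. Dbt to Bckdha is 0.277 and 0.702 and Bckdk to Ppm1k is 4.50 and 4.40.

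Ivd and Hibadh, which act in single-amino-acid arms, lay within 1.5-fold. Ivd, isovaleryl-CoA dehydrogenase of the leucine arm (chromosome 2, 118687725 to 118708608), stood at 397 FPKM on the control diet and 351 FPKM on CR, a log2 ratio of -0.18. Hibadh, which oxidises the valine intermediate 3-hydroxyisobutyrate (chromosome 6, 52496224 to 52590341), stood at 924 and 986 FPKM, a log2 ratio of 0.09. Its neighbour in the valine arm is Hibch, the hydrolase that releases 3-hydroxyisobutyrate. Hibch stood at 392 and 567 FPKM, a log2 ratio of 0.53.

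Both subunits of propionyl-CoA carboxylase were lower in the CR library, Pccb by more than Pcca. Pccb, the beta subunit (chromosome 9, 100882457 to 100935294), stood at 868 FPKM on the control diet and 462 FPKM on CR, a log2 ratio of -0.91, or 1.88-fold lower. It was the widest difference among the 10. Pcca, the alpha subunit, which carries biotin (chromosome 14, 122933550 to 123289166), stood at 613 and 477 FPKM, a log2 ratio of -0.36, or 1.29-fold lower. The ratio of Pcca to Pccb was 0.707 on the control diet and 1.03 on CR. The next enzymes did not share this direction. Mcee, methylmalonyl-CoA epimerase, stood at 385 FPKM on the control diet and 737 FPKM on CR, a log2 ratio of 0.93. Mut, the cobalamin-dependent mutase (chromosome 17, 41071336 to 41098938), stood at 997 and 1079.7 FPKM, a log2 ratio of 0.12. The first 210 bases of the Mut locus overlap Cenpq on the opposite strand, which stood at 41.6 FPKM on the control diet and 135 FPKM on CR.

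The other enzymes of the pathway, from a list of 18 of which 17 were measured, had a ratio above 0 in 14 cases, beside 4 of the 10 genes and 47.9% of all genes tested. Of the 17, 1 was at least 2-fold higher and 0 were at least 2-fold lower; at 1.5-fold the counts were 4 higher and 0 lower, against 16.4% and 18.8% of all genes. The gene past 2-fold was Abat, an aminotransferase best known for breaking down GABA, listed at 0 in the control library and at 36.5 FPKM in the CR library, so it has no fold. Besides Mcee and Abat, those past 1.5-fold were the hydratase Echs1 (740 and 1311 FPKM, a log2 ratio of 0.82) and Hsd17b10, the dehydrogenase of the isoleucine arm (932 and 1434 FPKM, 0.62). The median log2 ratio of the 17 was 0.33, or 0.30 without Abat, beside -0.15 for the 10 genes. The difference between these medians was not tested.

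Within the leucine arm, the carboxylase subunits Mccc1 and Mccc2 had log2 ratios of 0.07 and 0.56, and the hydratase Auh -0.04. Mccc1 and Mccc2 form a biotin carboxylase built like Pcca and Pccb, whose log2 ratios were -0.36 and -0.91. The acyl-CoA dehydrogenases of the other arms, Acadsb for isoleucine and Acad8 for valine, had log2 ratios of 0.33 and -0.02. Aldh6a1, which turns the end product of the valine arm into propionyl-CoA, stood at 889 and 932 FPKM, a log2 ratio of 0.07. The thiolase Acat1 had a log2 ratio of 0.27 and the ketone body enzyme Oxct1 -0.08. Hadha and Hadhb, the trifunctional protein subunits, which serve mainly fatty acid oxidation, had log2 ratios of 0.04 and 0.50.

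**Figure D3:**
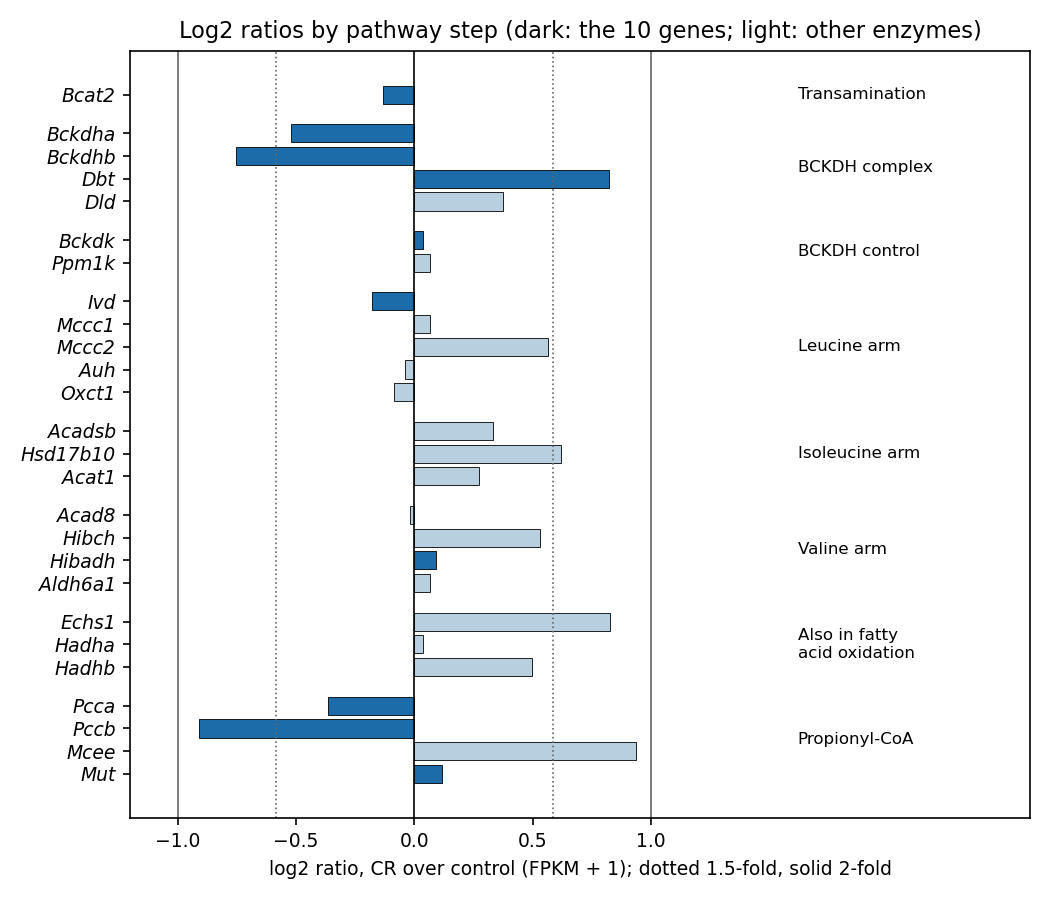
Log2 ratio of CR over control for each enzyme, ordered by pathway step, with the 10 genes in dark bars and other enzymes of the pathway in light bars; dotted lines mark 1.5-fold and solid lines 2-fold, and each bar is 1 library against 1. No bar reaches 2-fold; the E1 subunits Bckdha and Bckdhb and the carboxylase subunits Pcca and Pccb point left, and Dbt, Echs1 and Mcee point right with log2 ratios of 0.82 to 0.93. Abat, listed at 0 in the control library, is not drawn.

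The pyruvate dehydrogenase complex is built on the same plan as BCKDH and shares Dld with it. None of 9 measured genes for its subunits, kinases and phosphatases reached 2-fold in either direction, 1 was at least 1.5-fold higher, and the median log2 ratio was 0.15. Over all genes 8.01% were at least 2-fold higher and 10.7% at least 2-fold lower. At 1.5-fold the shares were 16.4% higher and 18.8% lower, so these counts lie near the background. The E1 subunits Pdha1 and Pdhb had log2 ratios of 0.15 and 0.32, beside -0.52 and -0.75 for Bckdha and Bckdhb. The E2 gene Dlat had 0.09, beside 0.82 for Dbt. The gene past 1.5-fold was the phosphatase Pdp1, at 0.65, while the phosphatase Pdp2 had -0.46. The most abundant gene of the list was the kinase Pdk4, at 8293 FPKM on the control diet and 7279 FPKM on CR. Pdha1, Pdhb and Dlat, the counterparts of the BCKDH genes, and Pdp1 and Pdp2 were named after their values were seen.

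Of 9 genes that carry BCAA or control the pathway, 2 were at least 1.5-fold lower in the CR library (Slc7a5 and Ppargc1a) and 1 was at least 1.5-fold higher (Ppara), with a median log2 ratio of -0.36. The shares over all genes were 18.8% lower and 16.4% higher, so these counts lie near the background. Slc7a5, the light chain of the large neutral amino acid transporter, stood at 104 FPKM on the control diet and 25.7 FPKM on CR, 3.93-fold lower on the log2(FPKM + 1) scale. Its partner Slc3a2 stood at 280.4 and 187.9 FPKM, a log2 ratio of -0.57. The mitochondrial BCAA carrier Slc25a44 had a log2 ratio of -0.10. Klf15, a factor known to raise BCAA breakdown genes in muscle, stood at 326 and 357 FPKM, a log2 ratio of 0.13. The coactivator Ppargc1a stood at 902 and 488 FPKM, a log2 ratio of -0.89, and Ppara at 88.5 and 185 FPKM, a log2 ratio of 1.06. Nr3c1, the glucocorticoid receptor and the most abundant of the list by its mean, stood at 855 and 835 FPKM. Slc3a2, Slc25a44, Klf15 and Ppargc1a were named after their values were seen.

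The values of Bckdha and Pccb carry a further uncertainty from unnamed loci assembled within their spans. The protocol names no step that keeps strand information, so reads of a gene and of a locus on its opposite strand cannot be told apart. Such loci lay within 2 of the 10 genes, Bckdha and Pccb, and within 16.6% of all genes of 1 locus. In Bckdha there were 4, of which 3 were lower in the CR library, as Bckdha was. The most abundant spans 26416013 to 26416194 on the plus strand and stood at 2237 FPKM on the control diet and 1995 FPKM on CR, above Bckdha itself in both. In Pccb there were 7, of which 5 were higher in the CR library, opposite to Pccb. One of them, from 100884794 to 100884896 on the plus strand, stood at 204 and 539 FPKM.

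Fragments of the overlapping unnamed loci were added to their host gene in proportion to FPKM and span over the host's transcript length. This alternative was chosen after the values were seen. With unnamed loci under 2 kb added, the log2 ratio of Pccb was -0.62 and that of Bckdha was -0.41, so that both kept their direction and Pccb stayed past 1.5-fold. With the longer loci added as well, by their whole span, the log2 ratios were -0.93 and -0.31. The longer locus in Bckdha spans 5042 bases, beside a transcript of 1899 nt. It stood at 1658 FPKM on the control diet and 1366 FPKM on CR, above Bckdha in both. This locus outweighs the gene in the sum, so that -0.31 mostly describes the locus. The longer locus in Pccb spans 6877 bases and stood at 135 and 31.9 FPKM. Dbt, with 1 unnamed locus on its own strand (669 FPKM on the control diet and 614 FPKM on CR), had a log2 ratio of 0.70 with that locus added. Bckdhb holds a 79-base locus of unknown strand listed at 0 in the control library and at 692 FPKM in the CR library, and with it the log2 ratio was -0.64. This locus is also shorter than the RNA pieces, and sums that include such short loci share the uncertainty of their FPKM. No unnamed locus overlapped the other 6 genes.

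**Figure D4:**
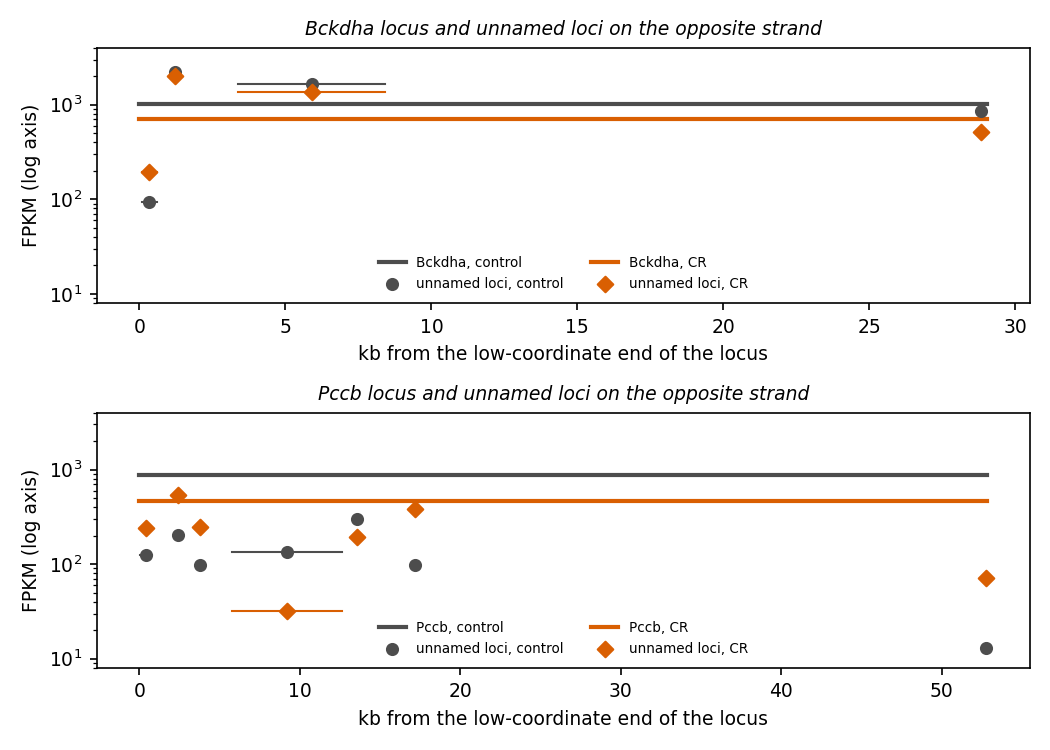
FPKM (log axis) against distance in kb from the low-coordinate end of the locus, for Bckdha (top) and Pccb (bottom); thick lines give the named gene over its span, and points with thin lines give unnamed loci on the opposite strand, control in grey and CR in orange. In Pccb 5 of 7 unnamed loci lie higher in the CR library while the gene lies lower. In Bckdha the 182-base locus near 1 kb lies above the gene in both libraries.

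The tissue label held: of 7 skeletal muscle genes 6 were measured, with Acta1, skeletal actin, at 372424 FPKM on the control diet and 354522 FPKM on CR. White adipocyte markers had a summed level of 20208 FPKM on the control diet and 38969 FPKM on CR, with 11 of 14 at least 2-fold higher, none of the 14 at least 2-fold lower and Adrb3 listed at 0 in the control library. Most of the control sum came from Car3, at 14545 FPKM on the control diet and 17548 FPKM on CR. Of the 3 within 2-fold, Lep and Car3 had log2 ratios of 0.53 and 0.27, and Plin4 was lower in the CR library, at 1164 and 702 FPKM, a log2 ratio of -0.73; Lep and Plin4 were named after their values were seen. Slow fibre markers summed to 16242 and 135098 FPKM, with 9 of 9 at least 2-fold higher, and fast fibre markers to 673627 and 1083241 FPKM, with 1 of 8. Fibroblast markers summed to 3227 and 5701 FPKM (3 of 6 at least 2-fold higher), endothelial markers to 1238 and 1983 FPKM (2 of 5) and macrophage markers to 211 and 274 FPKM (2 of 4, with Cd14 listed at 0 in the control library). Beside these counts, 8.01% of all genes were at least 2-fold higher. In such bulk tissue, a change in the number of cells of a type and a change in RNA per cell cannot be told apart. The part of these markers in the ratios of the breakdown genes was not tested.

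**Figure D5:**
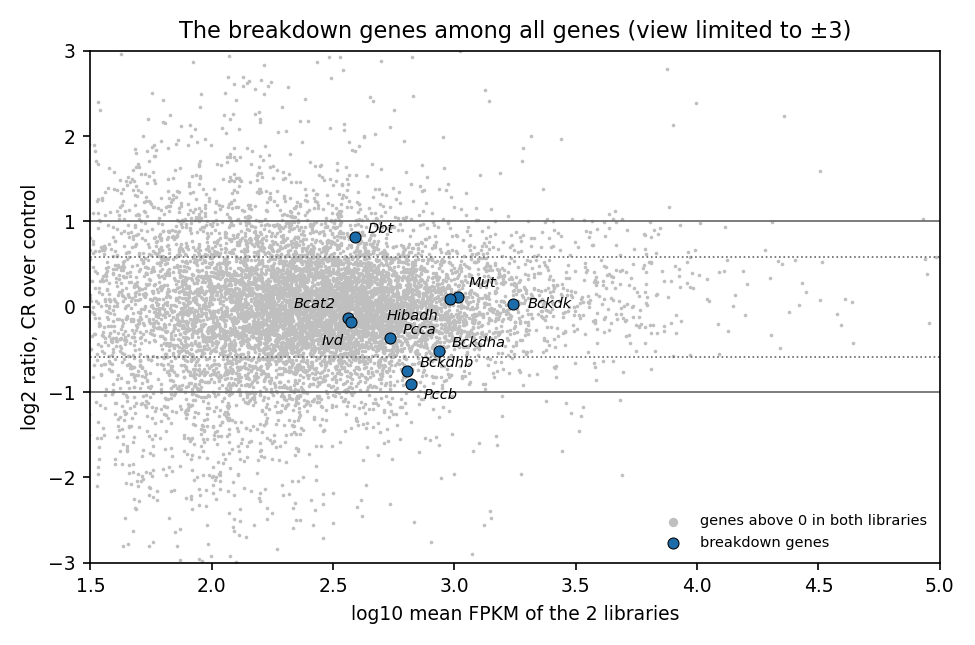
Log2 ratio of CR over control against log10 of the mean FPKM, with all genes above 0 in both libraries in grey and the 10 breakdown genes in blue; dotted lines mark 1.5-fold and solid lines 2-fold, and the view is limited on both axes. The 10 genes lie between -0.91 (Pccb) and 0.82 (Dbt).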

How the data were processed

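Per the labels' protocols, poly(A) RNA from 10 µg of total RNA was cut to pieces of about 200 nt, and paired ends of 76 bp were read. TopHat 1.2.0, Cufflinks, Cuffdiff and the build mm9 are named, with no options or annotation, per the submitters' processing notes. The authors deposited FPKM for 23672 loci, per the file headers. The lowest value is exactly 1, and more than 6 digits are found in 59 of 68 control values from 10 to 11 but in 0 of 73 from 11 to 12, so 1 was subtracted; this offset is inferred from the digits. FPKM sum to 12758512 (control) and 13608849 (CR), a high scale whose reason is not stated, so values are compared only within this table.

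Loci with 1 symbol were summed per symbol, and 234 loci that merge symbols were left out. The log2 ratio used a pseudocount of 1 FPKM, no scaling and a filter at a mean of 1 FPKM; counting was tested on simulated data. The 10 genes were taken by name, every enzyme of the pathway list could be named, and from other lists the genes past 2-fold (at most 3) and the most abundant. The members, the lists and the rules were chosen with earlier results of these data known. One enzyme of the pathway list is not reported here and is left out of its counts. Transcript lengths and starts came from GENCODE M21 (GRCm38), and promoter sequences from RefSeq (GRCm38.p6), with no coordinates converted. Python 3.11.15, numpy 2.4.6, pandas 2.3.3 and matplotlib 3.10.9 were used. Alternatives were other pseudocounts, filters, scalings, locus choice, no offset, and added overlapping loci.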

Additional observations from a re-analysis of the deposited data

How the results depend on the processing

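Of the 12 alternatives, 5 could not move the ratio of any of the 10 genes, each of which has 1 locus and a mean above 300 FPKM: no filter, filters at a mean of 10, 100 and 300 FPKM, and the largest locus of a symbol. The other 7 were pseudocounts of 0.1 and 5 FPKM, centring on the median gene, equal sums without the 50 most abundant genes, values with no offset removed, and overlapping loci added (under 2 kb, or all). In these 7 no gene passed 2-fold, and of the 56 ratios that moved, 54 kept their sign and their side of 1.5-fold. Both exceptions came with equal sums, which shifted the median of all genes from -0.03 to -0.10: Bckdha went to -0.59, past 1.5-fold, so that 3 genes were lower, and Bckdk changed sign to -0.04. Across these alternatives the log2 ratio ranged from -0.98 to -0.62 for Pccb, from -0.83 to -0.64 for Bckdhb and from 0.70 to 0.85 for Dbt. Adding overlapping loci under 2 kb changed Dbt to Bckdha to 0.260 on the control diet and 0.561 on CR, and Pcca to Pccb to 0.649 and 0.777. It also changed Bckdk to Bckdha to 1.31 and 1.79, Bckdha to Bckdhb to 1.63 and 1.91, and Bcat2 to Bckdha to 0.290 and 0.353. Only Bckdk to Ppm1k kept its values. Ratios within a library were not computed with the longer loci added. No paired analysis was possible because there is 1 library per group and no test. Depth is unknown, so counting error could not be given.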

Other observations

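Of 9 genes of cobalamin handling and use, a list that holds genes for the cofactor of Mut and also methionine synthase (Mtr) and its reductase (Mtrr), 0 passed 2-fold in either direction and the median log2 ratio was -0.02. At 1.5-fold 1 was higher, Mmaa (108 and 172 FPKM, a log2 ratio of 0.66), and 0 were lower, against 16.4% and 18.8% of all genes. Mtr and Mtrr had log2 ratios of -0.53 and 0.33, and these genes and Mmaa were named after their values were seen. Mmadhc, the most abundant of them, stood at 1038 FPKM on the control diet and 1131 FPKM on CR. Of 6 measured genes for biotin and lipoate supply, 1 was at least 2-fold higher, Btd, which recycles biotin (40.3 and 92.4 FPKM), and 0 were lower. The shares over all genes at 2-fold were 8.01% higher and 10.7% lower. The biotin ligase Hlcs, which loads biotin onto Pcca, was the most abundant and stood at 394 and 386 FPKM.

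Genes that handle the amino nitrogen released by Bcat2 had a median log2 ratio of -0.01 over 9 genes, of which 1 was past 2-fold and none of the other 8 past 1.5-fold. The gene past 2-fold was Slc1a5, a glutamine transporter, at 257 FPKM on the control diet and 987 FPKM on CR, while Got2, the mitochondrial aspartate aminotransferase and the most abundant, stood at 5389 and 5363 FPKM. For comparison, 8.01% of all genes were at least 2-fold higher and 10.7% at least 2-fold lower. At 1.5-fold these shares were 16.4% and 18.8%.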
